A study of Mus musculus with 6 samples.

Results

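The genes described here are 10 early response genes, *Fos*, *Fosb*, *Fosl2*, *Jun*, *Junb*, *Jund*, *Atf3*, *Egr1*, *Ier2* and *Dusp1*, measured in endothelial cells (ECs) of the mouse spinal cord. These genes, and the gene lists set beside them below, were chosen with earlier results of these data known. The 10 were taken by gene symbol, and all 10 were found, each on 1 row of the 56748 genes counted. The RNA came from ECs sorted from spinal cords at P16, with 1 library per mouse. The 3 control mice carried the floxed *Tardbp* gene (genotype Tardbpflox) without Cre, and the 3 *TDP-43iΔEC* mice (genotype Cdh5(PAC)-CreERT2;Tardbpflox) also carried a tamoxifen-inducible Cre driven by the promoter of *Cdh5*, which is active in ECs. Mice of both genotypes received tamoxifen (1 mg/mL) from P5 to P7, so the loss of *Tardbp*, which encodes the RNA-binding protein TDP-43, and the presence of Cre cannot be told apart. Before sorting, the tissue of every mouse was digested with collagenase for 30 minutes at 37°C and stained with antibodies for 20 minutes at 4°C. The comparison asked whether these genes differed between the genotypes, and it is given library by library.

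Immediate early genes are transcribed within minutes of a stimulus from transcription factors already present in the cell, without new protein synthesis. Growth factors, cytokines, shear stress and tissue injury act on them through MAP kinases, serum response factor (SRF) with its ternary complex factors, and CREB. Fos proteins pair with Jun proteins through leucine zippers to form AP-1, which binds TGANTCA sites, while EGR1 is a zinc finger factor and DUSP1 is a phosphatase that switches MAP kinases off again. Enzymatic dissociation of tissue is itself known to induce these genes, and in sorted cells a response in the tissue and a response to handling cannot be told apart.

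The 6 libraries held 25704871 to 47270654 counts and between 12972 genes (control mouse 2) and 16557 genes (control mouse 1) with a count. Normalized counts are counts divided by DESeq2 size factors, and 3 counts corresponded to 2.27 to 4.25 normalized counts. The 7 EC markers summed to 9505 to 13322 CPM (counts scaled to a common library total) in control mice and 9493 to 12228 CPM in *TDP-43iΔEC* mice. *Tardbp* itself had 1972, 2279 and 2069.9 normalized counts in controls 1, 2 and 3, against 980.2, 599.6 and 433 in *TDP-43iΔEC* mice 1, 2 and 3, which gives a log2 fold change (*TDP-43iΔEC* over control, log2FC) of -1.62 with an SE of 0.41 (adjusted p = 0.287 by limma, 0.373 by edgeR and 0.0216 by DESeq2), in the direction of the labels. In bulk RNA of this kind, fewer cells that express a gene and less RNA per cell cannot be told apart. Of the 7 EC markers, 6 had a log2FC below 0, and 2 were lower without overlap, beside 7.11% of all genes. These 2, *Flt1* and *Kdr*, were named after their values were seen. *Flt1* had a log2FC of -0.69 (SE 0.11, adjusted p = 0.0635 by limma and 7.9e-06 by DESeq2). *Kdr* had a log2FC of -0.26 (SE 0.13, adjusted p = 0.575 by limma and 0.768 by DESeq2).

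The promoters of these genes carry short elements through which they are known to be induced, and the stretches that hold them are shown to let a reader see which inputs the members have in common. The 500 bases upstream of the annotated start (GENCODE M39, canonical transcript, GRCm39) were searched on both strands. A CArG box, the site of SRF, was found upstream of 2 members, *Fos* and *Fosb*, and in 2.76% of the 21757 promoters of protein-coding genes. In both genes the core of the CRE (TGACG or its complement) followed the CArG box after 7 bases, while only 19 of all promoters, or 0.0873%, held such a core starting within 20 bases after a CArG box. The full CRE, TGACGTCA, the site of CREB and ATF proteins, was found upstream of *Jund*, *Ier2* and *Dusp1* and in 1.96% of all promoters. *Jun* held TGACATCA, the element through which Jun-ATF2 dimers are known to act on *Jun* itself, found in 3.72% of all promoters. *Atf3* held TGATGNAA, a C/EBP-ATF element of stress-induced genes, found in 6.77%. Each stretch reads 5′ to 3′ on the strand of the gene, and capitals mark matches to the letters searched, as their complement for *Atf3* and for the cores of *Fos* and *Fosb*.
Fos: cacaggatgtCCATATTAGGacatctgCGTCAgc
Fosb: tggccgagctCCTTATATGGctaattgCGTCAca
Ier2: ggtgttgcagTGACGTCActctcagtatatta
Dusp1: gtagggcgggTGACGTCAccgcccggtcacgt
Jund: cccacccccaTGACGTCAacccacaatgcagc
Jun: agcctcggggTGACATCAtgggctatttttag
Atf3: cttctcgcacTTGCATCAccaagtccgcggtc

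These stretches lie at chr12:85520345-85520378, plus strand for *Fos*, chr7:19044219-19044252, minus strand for *Fosb*, chr8:85389505-85389536, minus strand for *Ier2* and chr17:26727568-26727599, minus strand for *Dusp1*. Those of *Jund*, *Jun* and *Atf3* lie at chr8:71151375-71151406, plus strand, chr4:94940483-94940514, minus strand and chr1:190915619-190915650, minus strand. The AP-1 site TGANTCA itself was found upstream of *Fos* alone among the members and in 12.3% of all promoters. The EGR site GCGNGGGCG was found upstream of *Fosb*, *Jun* and *Jund* and in 5.46% of all promoters. The TATA box TATAAA was found upstream of *Fos* and *Junb* and in 24.3% of all promoters, and CRE cores upstream of 8 members and in 25.8%. The full CRE contains the core, so these matches overlap. Among the 11321 promoters of genes tested here, the shares were 7.7% for the EGR site, 33.7% for the core and 2.52% for the full CRE. They were 9.68% for the AP-1 site, 17.2% for the TATA box, 2.64% for the CArG box, 1.88% for TGACATCA and 4.8% for TGATGNAA. The longer stretch from 334 to 35 bases upstream of *Fos* (chr12:85520324-85520623, plus strand) is shown because it holds both elements and the 2 further cores nearer the start. It also opens with a core, as the complement CGTCA, at 334 to 330 bases upstream.
Fos, upstream stretch: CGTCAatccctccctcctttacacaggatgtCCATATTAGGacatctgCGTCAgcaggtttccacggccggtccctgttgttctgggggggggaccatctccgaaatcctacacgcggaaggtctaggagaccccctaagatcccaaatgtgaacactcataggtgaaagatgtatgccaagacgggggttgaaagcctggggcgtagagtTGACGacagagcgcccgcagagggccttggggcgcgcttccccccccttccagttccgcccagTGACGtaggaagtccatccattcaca

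A letter match is a description of the sequence and not a measured binding site, and *Fosl2* held a match to none of the letters searched. *Atf3* and *Dusp1* have annotated transcripts with other starts, which were not searched.

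Levels were compared between genes as normalized counts per kb of the canonical transcript. *Dusp1* and *Fos* had the highest levels, with means over the 6 libraries of 13978 (range 11894 to 15392) and 13265 (range 8436 to 16568) per kb. *Dusp1* exceeded *Fos* in 4 of 6 libraries, so these neighbours were not separable given the spread over libraries. The next group held *Atf3* (4710.4 per kb), *Ier2* (4388), *Jun* (3629) and *Junb* (3331), whose neighbours kept their order in 4 or 5 of 6 libraries and whose ranges overlapped. *Egr1* had 2356 per kb and lay below *Junb* in 6 of 6 libraries. *Fosb* (395 per kb), *Jund* (168) and *Fosl2* (101) formed the low end, in this order in 6 of 6 libraries.

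**Figure D1:**
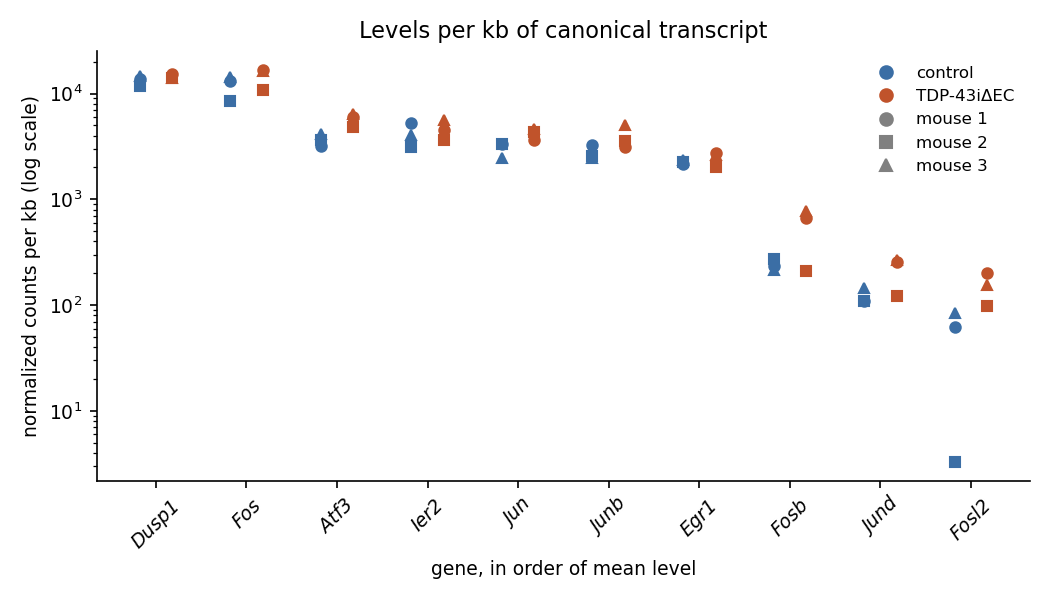
Level of each gene in normalized counts per kb of canonical transcript (log axis), 1 point per library, blue for control and orange for TDP-43iΔEC mice, with the marker shape giving the mouse number within its genotype. *Dusp1* and *Fos* lie near the top in every library, and *Fosl2* of control mouse 2 is the lowest point at 3.31 per kb.

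Within the Fos family, *Fos* made up 94.6% to 97.9% of the summed level per kb of *Fos*, *Fosb* and *Fosl2* in the 6 libraries. The Jun family was divided nearly evenly, with 46.7% to 55.4% for *Jun* and 42.8% to 50.6% for *Junb*, and 1.51% to 3.64% for *Jund*. The level per kb of *Fos* was 2.49 (*TDP-43iΔEC* mouse 2) to 5.82 (control mouse 3) times that of *Jun*. *Fos* was thus the leading Fos family mRNA of the sorted ECs in each mouse of both genotypes.

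*Fos* (identifier ENSMUSG00000021250.14, chr12:85520658-85524047, plus strand, 4 exons) encodes the classical partner of Jun proteins. Here and below, positions span all annotated transcripts of a gene, and exons are those of its canonical transcript. In the libraries *Fos* had normalized counts of 27877, 17834 and 30075 in controls 1, 2 and 3, and of 35025, 22896 and 34551 in *TDP-43iΔEC* mice 1, 2 and 3. *TDP-43iΔEC* mice 1 and 3 lay above every control mouse, but *TDP-43iΔEC* mouse 2 lay within the control range and control mouse 2 was the lowest library. The means were 25262 ± 6526 in control mice and 30824 ± 6869.9 in *TDP-43iΔEC* mice (SD, n = 3 mice each), and the log2FC was 0.27 (SE 0.25, 95% interval -0.29 to 0.83, adjusted p = 0.733 by limma). With a mouse left out it ranged from 0.014 (without control mouse 2) to 0.46 (without *TDP-43iΔEC* mouse 2).

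*Fosb* (ENSMUSG00000003545.4, chr7:19036621-19043976, minus strand, 4 exons) encodes FosB, whose induction is known to outlast that of c-Fos in its truncated ΔFosB form. Library by library it had normalized counts of 889.7, 1039 and 819.9 in controls 1, 2 and 3, and of 2499, 801 and 2921 in *TDP-43iΔEC* mice 1, 2 and 3. The 3 control mice and *TDP-43iΔEC* mouse 2 lay between 801 and 1039, and *TDP-43iΔEC* mice 1 and 3 lay more than 2-fold above all of them. The coefficient of variation was 12.2% in control and 54.1% in *TDP-43iΔEC* mice, and the log2FC was 0.98 (SE 0.53, 95% interval -0.22 to 2.17, adjusted p = 0.587 by limma). Leaving out each mouse in turn gave 0.64 (without *TDP-43iΔEC* mouse 1) to 1.50 (without *TDP-43iΔEC* mouse 2), with the lowest adjusted p at 0.359 by limma.

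*Fosl2* (ENSMUSG00000029135.11, chr5:32292707-32315186, plus strand, 4 exons) encodes Fra-2, a Fos family member with a slower and more lasting expression. Its 6 libraries held normalized counts of 429, 23.1 and 582 in controls 1, 2 and 3, and of 1417, 688 and 1088 in *TDP-43iΔEC* mice 1, 2 and 3. Every *TDP-43iΔEC* mouse lay above every control mouse, and control mouse 2 was 25.2-fold below control mouse 3 in normalized counts, with 26 counts before scaling. Its log2FC of 2.47 (SE 1.10, 95% interval -0.017 to 4.96, adjusted p = 0.541 by limma) was the largest of the 10 members and the one with the widest interval. Without control mouse 2 it was 1.02 (adjusted p = 0.577 by limma), so its size rested on that library.

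*Jun* (ENSMUSG00000052684.5, chr4:94937271-94940459, minus strand, 1 exon) encodes c-Jun, the target of JNK. *Jun* had normalized counts of 10745, 10617 and 7798 in controls 1, 2 and 3, and of 11561, 13875 and 14849 in *TDP-43iΔEC* mice 1, 2 and 3. Every *TDP-43iΔEC* mouse lay above every control mouse, with a gap between 10745 in control mouse 1 and 11561 in *TDP-43iΔEC* mouse 1. The means were 9719.9 ± 1665 in control mice and 13428 ± 1689 in *TDP-43iΔEC* mice (SD, n = 3 mice each), and the log2FC was 0.42 (SE 0.19, 95% interval -0.012 to 0.84, adjusted p = 0.547 by limma). It ranged from 0.27 (without control mouse 3) to 0.53 (without *TDP-43iΔEC* mouse 1) with each mouse left out in turn. *Junos* on the opposite strand overlaps 16.6% of the exonic sequence of *Jun*, and the counting did not use the strand, so reads of the pair cannot be told apart there.

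*Junb* (ENSMUSG00000052837.8, chr8:85701113-85705359, minus strand, 1 exon) encodes a Jun protein that can restrain c-Jun. *Junb* had normalized counts of 5864, 4656 and 4481 in controls 1, 2 and 3, and of 5657, 6371 and 9126 in *TDP-43iΔEC* mice 1, 2 and 3. *TDP-43iΔEC* mouse 3 was the highest library, and *TDP-43iΔEC* mouse 1 lay just below control mouse 1, so the genotypes overlapped. Its log2FC was 0.40 (SE 0.24, 95% interval -0.15 to 0.94, adjusted p = 0.612 by limma), and 0.23 (without *TDP-43iΔEC* mouse 3) to 0.56 (without *TDP-43iΔEC* mouse 1) with a mouse left out. *Prdx2* and *Gm65321* on the opposite strand cover 13.4% of the exonic bases merged over its transcripts.

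*Jund* (ENSMUSG00000071076.9, chr8:71151599-71153265, plus strand, 1 exon) encodes the Jun protein known for steady expression in many cell types. *Jund*, at the low end per kb, had normalized counts of 183, 183 and 244 in controls 1, 2 and 3, and of 425, 201 and 441 in *TDP-43iΔEC* mice 1, 2 and 3. *TDP-43iΔEC* mice 1 and 3 lay above all control mice, and *TDP-43iΔEC* mouse 2 lay among them. For *Jund* the log2FC was 0.76 (SE 0.81, 95% interval -1.08 to 2.59, adjusted p = 0.779 by limma), and 0.45 (without *TDP-43iΔEC* mouse 1) to 1.05 (without *TDP-43iΔEC* mouse 2) with a mouse left out. *Gm11175* on the opposite strand covers 52.6% of the exonic bases of *Jund*, so these low counts are uncertain to that extent.

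**Figure D2:**
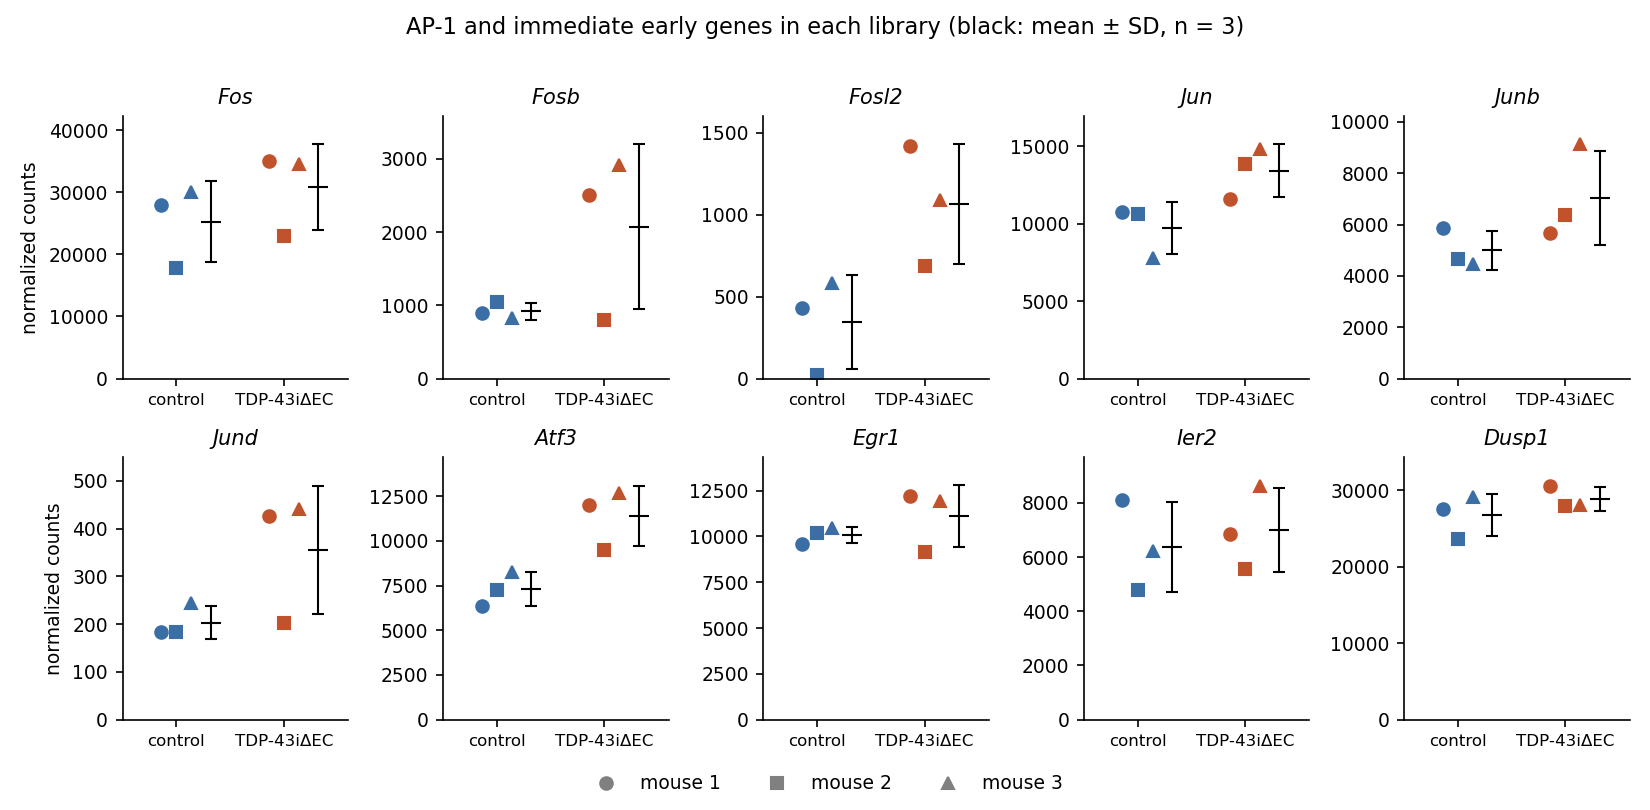
Normalized counts of each gene in the 3 control (blue) and 3 TDP-43iΔEC (orange) libraries, with the mean and SD in black (n = 3 mice each), each axis starting at 0. The shape gives the mouse number within its genotype and pairs no mice across genotypes. Every orange point lies above every blue point for *Fosl2*, *Jun* and *Atf3*.

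*Atf3* (ENSMUSG00000026628.14, chr1:190902493-190950241, minus strand, 4 exons) encodes a leucine zipper factor of the ATF/CREB family that is induced by many stresses and by vessel injury. It had normalized counts of 6352, 7263 and 8250.5 in controls 1, 2 and 3, and of 12021, 9492 and 12695 in *TDP-43iΔEC* mice 1, 2 and 3. Every *TDP-43iΔEC* mouse lay above every control mouse, and the spread within each genotype was modest, with coefficients of variation of 13.0% and 14.8%. The means were 7288 ± 949.6 in control mice and 11402 ± 1689 in *TDP-43iΔEC* mice (SD, n = 3 mice each). The log2FC was 0.61 (SE 0.19, 95% interval 0.17 to 1.05, adjusted p = 0.399 by limma), a 1.52-fold difference whose unadjusted p was 0.0123 in limma, the lowest of the 10 members. With each mouse left out in turn it stayed between 0.51 and 0.72, and over all alternatives its adjusted p ranged from 0.0979 (DESeq2) to 0.75 (limma without *TDP-43iΔEC* mouse 1).

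*Egr1* (ENSMUSG00000038418.8, chr18:34992876-34998049, plus strand, 2 exons) encodes a zinc finger transcription factor induced through SRF. It had normalized counts of 9611, 10208 and 10466 in controls 1, 2 and 3, and of 12206, 9146 and 11916 in *TDP-43iΔEC* mice 1, 2 and 3. The control mice differed by 1.09-fold at most, and *TDP-43iΔEC* mice 1 and 3 lay above and *TDP-43iΔEC* mouse 2 below all of them. On average the log2FC was 0.10 (SE 0.18, 95% interval -0.30 to 0.50, adjusted p = 0.88 by limma), and -0.0034 (without *TDP-43iΔEC* mouse 1) to 0.22 (without *TDP-43iΔEC* mouse 2) with a mouse left out. Its interval on the linear scale runs from 0.811-fold to 1.41-fold.

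*Ier2* (ENSMUSG00000053560.6, chr8:85387960-85389483, minus strand, 1 exon) encodes a small nuclear protein of the immediate early response. It had normalized counts of 8091, 4788 and 6212 in controls 1, 2 and 3, and of 6841, 5548 and 8643 in *TDP-43iΔEC* mice 1, 2 and 3. The genotypes overlapped almost wholly, with control mouse 1 second only to *TDP-43iΔEC* mouse 3. This gave a log2FC of 0.10 (SE 0.26, 95% interval -0.49 to 0.69, adjusted p = 0.924 by limma), and -0.11 (without control mouse 2) to 0.29 (without control mouse 1) with a mouse left out.

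*Dusp1* (ENSMUSG00000024190.8, chr17:26724564-26781102, minus strand, 4 exons) encodes the phosphatase MKP-1, which inactivates JNK, p38 and ERK. It had normalized counts of 27561, 23669 and 29086 in controls 1, 2 and 3, and of 30630.2, 27904 and 28049 in *TDP-43iΔEC* mice 1, 2 and 3. Its 6 libraries lay within 1.29-fold of one another, the narrowest range of the 10 members, and the genotypes overlapped. The log2FC was 0.082 (SE 0.14, 95% interval -0.23 to 0.40, adjusted p = 0.868 by limma), and the interval reaches no further than 0.851-fold and 1.32-fold. Its mRNA and that of *Fos* had the highest levels per kb, as given above.

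All 10 members passed the filter on low counts, and each had a log2FC above 0, as did 49.3% of the 13107 genes tested. Over the alternatives 8 to 10 members did, since *Ier2* turned negative in 3 of them, *Dusp1* in 2 and *Egr1* in 1. Their median was 0.41, beside -0.015 over all genes tested. After Benjamini-Hochberg adjustment over all genes, 0 of the 10 members passed the threshold of 0.05 in limma (adjusted p from 0.399 to 0.924), where 0.137% of all genes did. Without adjustment, 1 member (*Atf3*) was higher with a limma p under 0.05, beside 4.26% of all genes in that direction and 9.27% in either. In edgeR's test 0 members passed with adjustment, where 0 of all genes did, and 1 was higher without, beside 2.72% of all genes higher and 6.47% in either direction. In DESeq2's test 0 members passed with adjustment, beside 1.91% of all genes, and 3 (*Fosb*, *Jun* and *Atf3*) were higher without, beside 4.21% of all genes higher and 8.49% in either direction. The genotypes did not overlap for 3 members, *Fosl2*, *Jun* and *Atf3*, all higher in *TDP-43iΔEC* mice, and 7.92% of all genes were without overlap in that direction, 7.11% in the opposite one and 15% in either. For each of these 3 the exact permutation test over the 6 mice (2-sided) gave p = 0.1, the smallest that 3 mice against 3 allow. That value follows from the lack of overlap and adds nothing to it. In the same test the other members gave p from 0.2 (*Junb* and *Jund*) to 0.7 (*Ier2*).

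**Figure D3:**
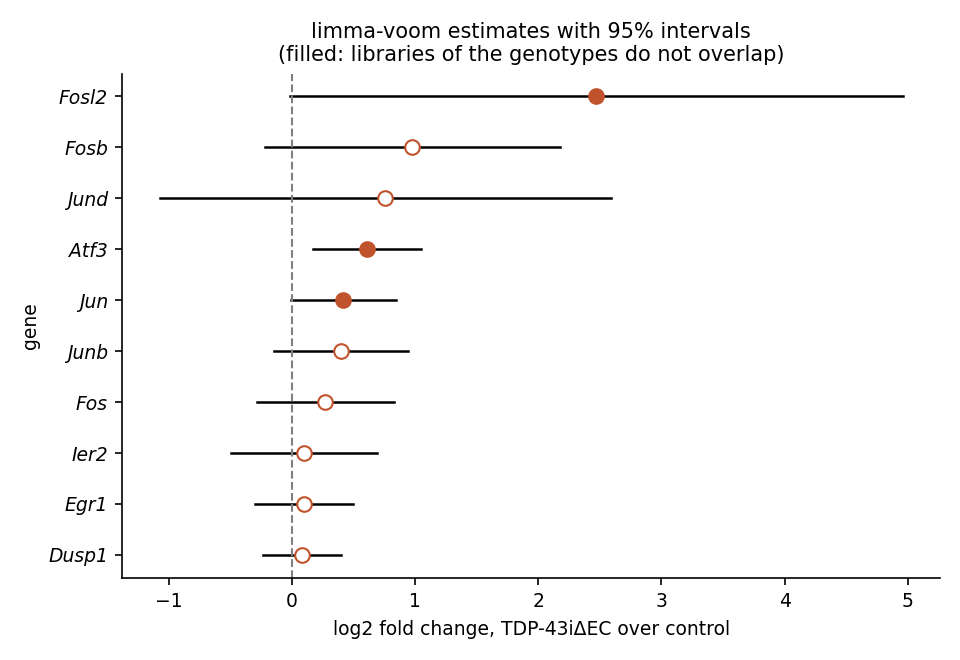
Log2FC of TDP-43iΔEC over control mice for each gene (points) with its 95% interval from limma (lines), filled where the libraries of the genotypes did not overlap. All 10 points lie right of 0, and the interval of *Atf3* alone (0.17 to 1.05) leaves out 0, before adjustment.

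Library by library, the *TDP-43iΔEC* mice were not alike. *TDP-43iΔEC* mouse 3 lay above all 3 control mice for 9 of 10 members and *TDP-43iΔEC* mouse 1 for 8, but *TDP-43iΔEC* mouse 2 for 4 only. Over all genes tested these shares were 29.3%, 29.5% and 28.2%. *TDP-43iΔEC* mouse 2 was the lowest of its genotype for 8 of 10 members, beside 29.3% of all genes, and lay below all control mice for *Fosb* and *Egr1*. The exceptions were *Jun* and *Junb*, in which *TDP-43iΔEC* mouse 1 was the lowest. Control mouse 2 was the lowest of the control mice in normalized counts for 4 of 10 members, beside 44.4% of all genes. Summed over the 10 members, the counts made up 0.267%, 0.199% and 0.255% of the libraries of control mice 1, 2 and 3 and 0.347%, 0.288% and 0.341% of those of *TDP-43iΔEC* mice 1, 2 and 3. Each *TDP-43iΔEC* library thus lay above each control library in this share, but the share is on the scale of the library total, on which the median log2FC of all genes was 0.18.

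Leaving out *TDP-43iΔEC* mouse 2 raised the number of members without overlap from 3 to 7, with *Fos*, *Fosb*, *Jund* and *Egr1* added, while the share of all genes without overlap in that direction was 13.3%. Leaving out control mouse 3 gave 5 members, beside 11.7% of all genes. The duration of handling and the order of sorting of each mouse are not given in the sources used here, and their part in the differences between libraries was not tested. *TDP-43iΔEC* mouse 2 had 28228980 counts, between *TDP-43iΔEC* mouse 3 and the other 4 libraries, and 4.98% of counts from mitochondrially encoded genes (range over the 6 libraries 1.67% to 6.46%). It was the highest of the 6 libraries for mural markers (1018 CPM) and fibroblast markers (43.9 CPM, beside 43.0 CPM in *TDP-43iΔEC* mouse 1) and had the highest TMM factor (1.11). The part of these measures in its values was not tested.

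**Figure D4:**
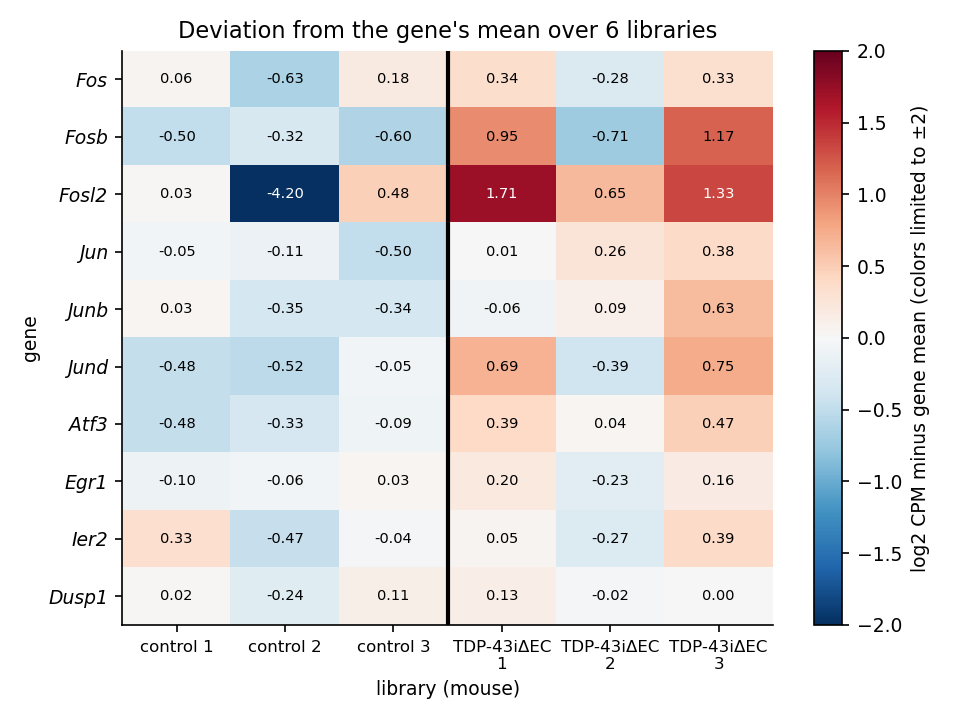
Difference of each library from the mean of the gene over the 6 libraries, in log2 CPM, with the value printed in each cell and a line between the genotypes. Red cells gather in TDP-43iΔEC mice 1 and 3, blue cells in control mouse 2, where *Fosl2* is at -4.20, and TDP-43iΔEC mouse 2 is below the mean for 6 of 10 genes.

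Of 33 other immediate early and early response genes, 31 were tested. Of these, 24 had a log2FC above 0, beside 49.3% of all genes, and their median was 0.50, beside -0.015. In limma 0 passed the adjusted threshold, beside 0.137% of all genes. Without adjustment 8 were higher and 0 lower in *TDP-43iΔEC* mice with a limma p under 0.05, beside 4.26% and 5% of all genes. These were *Plk2*, *Errfi1*, *Ier3*, *Nr4a1*, *Socs3*, *Zfp36*, *Trib1* and *Klf6*, which include feedback inhibitors of receptor and cytokine signals (*Errfi1* and *Socs3*). In edgeR's test 0 passed with adjustment and 7 were higher without, and in DESeq2's 1 and 8, beside 2.72% and 4.21% of all genes higher without adjustment and 1.91% past the adjusted threshold in DESeq2. With a mouse left out the limma count was 4 without control mouse 1, control mouse 2, *TDP-43iΔEC* mouse 1 or *TDP-43iΔEC* mouse 3, 6 without control mouse 3 and 7 without *TDP-43iΔEC* mouse 2, while the share of all genes higher in these fits was 2.69% to 4.51%.

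*Plk2*, a polo-like kinase gene of the early response, had normalized counts of 13696, 8536 and 13512 in controls 1, 2 and 3, and of 23868, 19562 and 24176 in *TDP-43iΔEC* mice 1, 2 and 3. The groups lay apart, and the log2FC was 0.91 (SE 0.21, 95% interval 0.42 to 1.40, adjusted p = 0.27 by limma). With DESeq2's test in place of limma its adjusted p was 0.0075, the only gene of the list to pass there. *Errfi1*, which encodes the EGF receptor inhibitor MIG6, had normalized counts of 729, 876 and 762 in controls 1, 2 and 3, and of 1427, 2145 and 2136 in *TDP-43iΔEC* mice 1, 2 and 3, and its log2FC was 1.16 (SE 0.36, 95% interval 0.34 to 1.97, adjusted p = 0.389 by limma). *Ier3*, an early gene that modulates ERK and NF-κB signals, had normalized counts of 3075, 2923 and 3559 in controls 1, 2 and 3, and of 6286, 4348 and 9277 in *TDP-43iΔEC* mice 1, 2 and 3, with a log2FC of 0.94 (SE 0.30, 95% interval 0.26 to 1.61, adjusted p = 0.396 by limma). In each of these 3 genes the 3 *TDP-43iΔEC* mice lay above the 3 control mice, *TDP-43iΔEC* mouse 2 included. The 3 were named for the lowest unadjusted limma p of the list, a choice that favors such a separation.

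The genotypes did not overlap for 11 of the 31 genes, all higher in *TDP-43iΔEC* mice, beside 7.92% of all genes. For 3 of them (*Plk3*, *Arc* and *Myc*) control mouse 2 was at 0 counts, so their fitted fold changes depend on the offset added to counts. The early genes *Ccn1*, a target of YAP, and *Klf4*, a gene induced by shear stress in ECs, had log2FCs of -0.046 and 0.029 (adjusted p = 0.938 and 0.989 by limma) and were named after their values were seen. *Npas4* had 0 counts in every library, and *Egr4* was counted in *TDP-43iΔEC* mouse 2 alone.

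**Figure D5:**
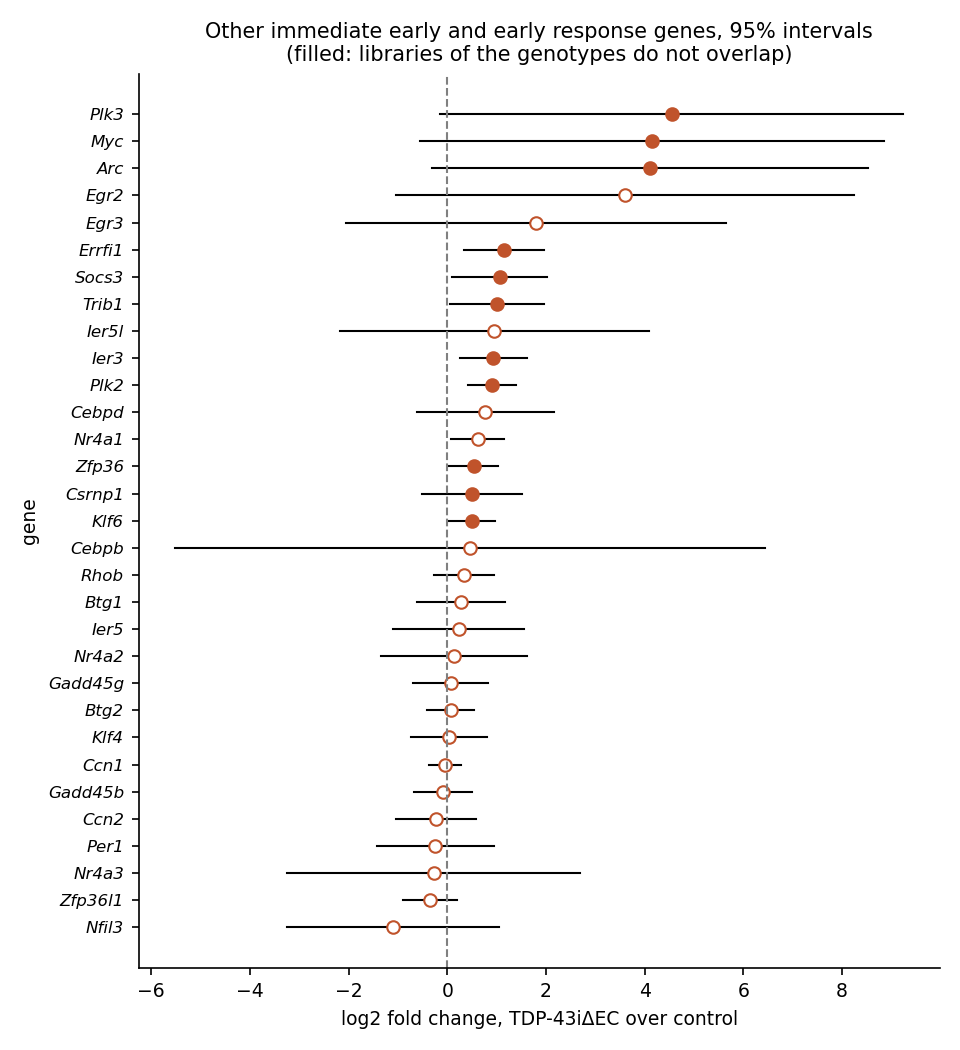
Log2FC of TDP-43iΔEC over control mice with its 95% interval from limma for the 31 other early response genes tested, in order of size, filled where the libraries of the genotypes did not overlap. The filled points all lie right of 0, and the widest intervals belong to genes with few or no counts in some libraries.

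Of 9 other AP-1 and small Maf genes, 7 were tested and 6 had a log2FC above 0, beside 49.3% of all genes. In limma, edgeR or DESeq2 0 had an unadjusted p under 0.05, beside 9.27%, 6.47% and 8.49% of all genes. *Batf*, whose protein pairs with Jun proteins, had normalized counts of 46.6, 0 and 52.0 in controls 1, 2 and 3, and of 348, 135 and 160.2 in *TDP-43iΔEC* mice 1, 2 and 3. It was higher in every *TDP-43iΔEC* mouse than in every control mouse at low counts (adjusted p = 0.549 by limma). *Fosl1*, which encodes Fra-1, had normalized counts of 0, 136 and 25.2 in controls 1, 2 and 3, and of 324, 0 and 370.1 in *TDP-43iΔEC* mice 1, 2 and 3 and was named after its values were seen. *Mafk* and *Atf7* had log2FCs of 0.82 and -0.38 (adjusted p = 0.609 and 0.708 by limma). With a mouse left out *Mafk* ranged from 0.44 (without control mouse 1) to 1.34 (without control mouse 2) and *Atf7* from -0.62 (without control mouse 3) to -0.23 (without control mouse 1).

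Of 10 other dual specificity phosphatase genes, 9 were tested. Of these, 3 had a log2FC above 0 and 6 below it, beside 49.3% of all genes above 0. In limma, edgeR or DESeq2 0 had an unadjusted p under 0.05, where the shares of all genes were 9.27%, 6.47% and 8.49%. *Dusp6*, the gene of an ERK phosphatase, had normalized counts of 14247 ± 4309.9 in control mice and 13167 ± 864 in *TDP-43iΔEC* mice (SD, n = 3 mice each). Its log2FC was -0.10 (SE 0.22, 95% interval -0.59 to 0.39, adjusted p = 0.897 by limma), and it was named after its values were seen. *Dusp2* had normalized counts of 1246, 128 and 1375 in controls 1, 2 and 3, and of 2144, 1741 and 1502 in *TDP-43iΔEC* mice 1, 2 and 3, with a log2FC of 1.53 (SE 0.75, 95% interval -0.16 to 3.23, adjusted p = 0.56 by limma). Without control mouse 2 the log2FC of *Dusp2* was 0.42, so its size rested on that library. *Dusp5* had normalized counts of 209.5, 0 and 300.3 in controls 1, 2 and 3, and of 1321, 273 and 326 in *TDP-43iΔEC* mice 1, 2 and 3 (adjusted p = 0.589 by limma), and its log2FC was 4.28, or 1.15 without control mouse 2, which was at 0 counts. *Dusp4*, with normalized counts of 44.1, 5.33 and 89.3 in controls 1, 2 and 3, and of 0, 0 and 18.4 in *TDP-43iΔEC* mice 1, 2 and 3, was at 0 in 2 libraries, and no fold is given for it (adjusted p = 0.606 by limma).

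The 21 kinases and transcription factors upstream of the early genes were all tested. With TMM factors they divided evenly by sign (10 above 0 and 11 below, median -0.0064), beside 49.3% of all genes above 0. Without adjustment, 2 were higher and 1 lower in *TDP-43iΔEC* mice with a limma p under 0.05, beside 4.26% and 5% of all genes. With adjustment 0 passed in limma, beside 0.137% of all genes. In edgeR's test 1 was higher and 1 lower without adjustment, beside 2.72% and 3.75% of all genes. In DESeq2's test 2 and 1 were, beside 4.21% and 4.28%, and 0 passed with adjustment in either, beside 0% and 1.91% of all genes. In limma, scaling by library size alone gave 15 above 0 (median 0.18, beside 0.18 over all genes). Scaling to the EC markers gave 16 above 0 (median 0.23, beside 0.22). In both, 4 were higher and 0 lower without adjustment, beside 6.96% and 6.91% of all genes higher and 2.92% and 2.17% lower. *Map2k1*, which encodes the ERK kinase MEK1, had normalized counts of 1949.9, 451 and 994 in controls 1, 2 and 3, and of 2692, 2937 and 3334 in *TDP-43iΔEC* mice 1, 2 and 3, and its log2FC was 1.57 (SE 0.46, 95% interval 0.51 to 2.62, adjusted p = 0.36 by limma). Without control mouse 2 it was 1.02. *Map2k3*, the kinase gene of p38, had a log2FC of 0.61 (SE 0.26, 95% interval 0.0063 to 1.21, adjusted p = 0.536 by limma), and 0.38 (without *TDP-43iΔEC* mouse 1) to 0.76 (without control mouse 1) with a mouse left out. *Mrtfb*, which encodes a coactivator of SRF, was lower, with normalized counts of 7627, 13894 and 7828 in controls 1, 2 and 3, and of 6609.8, 5379 and 5143 in *TDP-43iΔEC* mice 1, 2 and 3 and a log2FC of -0.73 (SE 0.27, 95% interval -1.35 to -0.12, adjusted p = 0.473 by limma), which ranged from -0.88 (without control mouse 1) to -0.48 (without control mouse 2). The JNK gene *Mapk8* had a log2FC of 0.10 (adjusted p = 0.976 by limma) and was named after its values were seen.

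Of 12 genes known to be regulated through AP-1 sites, 8 were tested and 6 had a log2FC above 0, beside 49.3% of all genes. With sample quality weights, without control mouse 2 or without *TDP-43iΔEC* mouse 3, 4 of the 8 were above 0. In each of the 3 tests 1 was higher with an unadjusted p under 0.05, beside 4.26%, 2.72% and 4.21% of all genes in limma, edgeR and DESeq2. Without control mouse 2, 1 was higher and 1 lower in limma, beside 2.69% and 6.46% of all genes. After adjustment 0 passed in limma and edgeR and 1 in DESeq2, beside 0.137%, 0% and 1.91% of all genes in limma, edgeR and DESeq2. *Plaur*, which encodes the urokinase receptor, had normalized counts of 2144, 542 and 1830.5 in controls 1, 2 and 3, and of 4783, 3717 and 6384 in *TDP-43iΔEC* mice 1, 2 and 3. Every *TDP-43iΔEC* mouse lay above every control mouse, and the log2FC was 1.84 (SE 0.48, 95% interval 0.76 to 2.93, adjusted p = 0.296 by limma), with an adjusted p of 0.0447 in DESeq2's test. Without control mouse 2 the log2FC of *Plaur* was 1.21. *Timp1* and *Hmox1* also had higher values in each *TDP-43iΔEC* mouse than in each control mouse, with log2FCs of 0.77 and 0.57 (adjusted p = 0.569 and 0.57 by limma). With a mouse left out *Hmox1* ranged from 0.36 (without *TDP-43iΔEC* mouse 1) to 0.67 (without *TDP-43iΔEC* mouse 2). These 3 of the 8 genes were without overlap and higher, beside 7.92% of all genes. *Mmp3*, *Mmp9* and *Mmp10* had 0 counts in every library.

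Heat shock genes, which dissociation at 37°C is also known to induce, gave a further reading of the state of the cells. All 12 were tested, 10 had a log2FC above 0 (median 0.29), beside 49.3% of all genes, and 4 were higher at an unadjusted p under 0.05 in limma, 3 in edgeR and 4 in DESeq2, beside 4.26%, 2.72% and 4.21% of all genes. After adjustment 0 passed in limma and edgeR and 1 in DESeq2, beside 0.137%, 0% and 1.91% of all genes in limma, edgeR and DESeq2. *Hspa1a*, the inducible HSP70 gene, had normalized counts of 26827, 18225 and 26611 in controls 1, 2 and 3, and of 38312, 38495 and 49184 in *TDP-43iΔEC* mice 1, 2 and 3, with a log2FC of 0.77 (SE 0.19, 95% interval 0.34 to 1.19, adjusted p = 0.271 by limma). Its adjusted p in DESeq2's test was 0.00788. *Hspa1a* and *Hspa1b* are nearly identical copies, so the division of reads between them is uncertain. *Hsph1* had normalized counts of 1455, 343 and 968 in controls 1, 2 and 3, and of 3086, 1712 and 4788 in *TDP-43iΔEC* mice 1, 2 and 3 and a log2FC of 1.83 (SE 0.59, 95% interval 0.50 to 3.16, adjusted p = 0.404 by limma), and *Hsp90aa1* a log2FC of 0.65 (SE 0.24, 95% interval 0.11 to 1.19, adjusted p = 0.471 by limma). With a mouse left out the log2FC ranged from 1.23 to 2.28 for *Hsph1*, 0.56 to 0.86 for *Hspa1a* and 0.49 to 0.86 for *Hsp90aa1*. *Hspb1*, the gene of a small heat shock protein, had a log2FC of -0.035 (adjusted p = 0.971 by limma) and was named after its values were seen. Their part in the values of the 10 members was not tested.

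The study lists fluorescent antibodies against CD45 (leukocytes) and TER-119 (erythroid cells) beside CD31 (ECs), with which a sort can leave out immune and red blood cells. The 6 microglia and macrophage markers summed to 0 to 3.77 CPM in control and 0.244 to 8.21 CPM in *TDP-43iΔEC* mice, with 2 and 4 of the 6 counted and *Adgre1* at 0 in every library. The highest sum, in *TDP-43iΔEC* mouse 3, came from *P2ry12* alone (299 normalized counts, named after its values were seen), and the other 5 markers were at 0 there. The 5 markers of other leukocytes summed to 0 to 0.704 CPM in control and 0 to 0.744 CPM in *TDP-43iΔEC* mice, with 2 of 5 counted in each genotype and *S100a8* and *S100a9* at 0. The 5 mural cell markers summed to 466 to 817 CPM in control and 390.0 to 1018 CPM in *TDP-43iΔEC* mice, all counted in both genotypes. The 4 astrocyte and 4 neuronal markers summed to 5.25 to 20.7 CPM in control and 0 to 27.7 CPM in *TDP-43iΔEC* mice, and to 3.11 to 9.40 CPM in control and 0.567 to 1.95 CPM in *TDP-43iΔEC* mice, where 1 of the neuronal markers was counted. The 4 oligodendrocyte markers summed to 271 to 485 CPM in control and 15.7 to 436 CPM in *TDP-43iΔEC* mice, the lowest in *TDP-43iΔEC* mice 2 and 3, and the 4 fibroblast markers to 31.6 to 36.7 CPM in control and 12.8 to 43.9 CPM in *TDP-43iΔEC* mice. The 5 erythroid markers summed to 6336 to 9759 CPM in control and 2197 to 2909 CPM in *TDP-43iΔEC* mice, and the 18S ribosomal RNA gene took 14.8% to 18.5% and 8.04% to 13.6% of the counts. Where these sums moved with the genotype, their part in the members' values was not tested.

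The pattern over the 6 libraries was compared with that of other genes by Pearson's r on log2 CPM, given as a description without a test. Each member was set against the mean of the other 9. *Fos* (r = 0.88), *Jund* (0.86) and *Atf3* (0.81) were most like that mean, and *Jun* (0.40) least. Outside the list, the 6 genes most like the mean of the 10 were *Orc6*, *Tsc22d4*, *Cmpk1*, *Smdt1*, *Fem1c* and *Fbxo8*, with r from 0.98 to 0.997. Of 7565 genes compared, 148 had an r above 0.9. The mean itself leans on *Fosl2* in control mouse 2, and points share library and depth.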

How the data were processed

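RNA-Seq reads of 6 SMARTseq2 libraries were mapped by the authors to GRCm39 with STAR 2.7.8a and quantified per gene with RSEM 1.3.0 on GENCODE M30. The deposited values are estimated counts, whole numbers that were neither scaled nor filtered (0 were not whole). Library totals ranged from 25704871 to 47270654. PCR copies could not be removed by molecular identifiers, since the protocol names none. RNA input (0.2 to 3.1 ng) and amplification (15 or 20 cycles) are given for the set and not by mouse, and their part was not tested. Groups came from the sample titles. The members and gene lists were chosen with earlier results of these data known. Rows were taken by gene symbol.

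Differential expression was tested over 13107 genes in R 4.3.3 with limma 3.58.1 (voom, empirical Bayes), TMM factors and filterByExpr from edgeR 4.0.16, without covariates, as the study's methods name limma and voom. The threshold was a p of 0.05 after Benjamini-Hochberg adjustment over all of them. Size factors came from DESeq2 1.42.0. Alternatives were edgeR's and DESeq2's tests, sample quality weights, other scalings and filters, removal of technical genes, drawing down to the smallest library, the replicate number as a block and leaving out each mouse. The procedures were tested on simulated data. Named genes were *Tardbp*, the members, the 3 genes of each list with the lowest unadjusted limma p, the 6 most similar in pattern, and genes stated as named later. Positions and upstream sequence came from GENCODE M39 and GRCm39, which matched 98.7% of gene identifiers. Upstream sequence of *Egr1*, *Junb* and *Fosl2* is not shown. The values of 1 gene of the upstream list are not reported here.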

Additional observations from a re-analysis of the deposited data

How the results depend on the processing

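With every alternative tried, 0 of the 10 members passed an adjusted p of 0.05, and 0 passed 0.1 in limma. Their median log2FC stayed between 0.29 and 0.64, and 8 to 10 of the 10 values were above 0. Scaling by library size alone or to the EC markers moved the median of all genes to 0.18 and 0.22, and the members' median above that of all genes was then 0.42 and 0.42, beside 0.42, while with a mouse left out it was 0.26 (without *TDP-43iΔEC* mouse 3) to 0.57 (without control mouse 2). *Ier2* turned negative with sample quality weights (-0.076), without control mouse 2 (-0.11) and without *TDP-43iΔEC* mouse 3 (-0.023), *Dusp1* with sample quality weights (-0.014) and without control mouse 2 (-0.027, range with a mouse left out up to 0.15), and *Egr1* without *TDP-43iΔEC* mouse 1 (-0.0034). The cause was not tested. The number of members with an unadjusted p under 0.05, 1 in limma, was 2 with sample quality weights, with no filter on low counts, with at least 10 counts in every library, with counts drawn down and with the replicate block, where 3.13% to 5.46% of all genes were higher (beside 4.26%). It was 3 with DESeq2's test, DESeq2's size factors, upper quartile scaling or technical genes left out (all genes 4.21% to 4.77%), 4 with scaling to the EC markers (6.91%) and 5 by library size alone (6.96%), and 0 (without control mouse 1) to 3 (without *TDP-43iΔEC* mouse 2) with a mouse left out, beside 3.71% and 4.07%. Members without overlap numbered 5 by library size alone, beside 10.6% of all genes, and 3 to 7 with a mouse left out, beside 10.4% to 13.5%, always higher in *TDP-43iΔEC* mice. Over all genes, the 18 that passed the threshold became 0 with edgeR's test (848 at an unadjusted p under 0.05), 250 with DESeq2's, 10 by library size alone, 1 with EC marker scaling, 76 without a filter, 39 with at least 10 counts in every library (fewer genes tested) and 0 to 13 with a mouse left out, 0 without *TDP-43iΔEC* mouse 1 (960 at an unadjusted p under 0.05). The replicate numbers did not pair the mice (r of deviations -0.13 to -0.023, and each control library correlated best with a *TDP-43iΔEC* library of another number), and with the replicate block 22 genes and 0 members passed. After the data were seen, leaving the members out of the TMM factors was added and moved no member across the threshold. Genes under 3 counts in a library could not be measured there.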
